A study of Mus musculus with 24 samples.

Results

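The 76 mitochondrial ribosomal protein genes were the rows of the deposited count table whose symbol begins with Mrpl or Mrps, pseudogene names left out, with 10 or more counts in at least 6 of the 24 libraries. No row with such a name was lost to the count minimum, and the table held 23337 rows in all. Of these genes, 47 carried large subunit (Mrpl) names and 29 small subunit (Mrps) names, and all 76 were among the 12281 genes tested. RNA came from sorted heart muscle cells (cardiomyocytes) of 4-week-old mice given an adeno-associated virus (AAV) on postnatal day 1, in 4 groups of 6 libraries. TKO mice carried Mrtfa-/- (spelled Mrfta in the labels), Mrtfb F/F and Rosa-Cas9/Cas9 alleles and received AAV-Myocd-sgRNA, so that all 3 genes of the myocardin family were targeted. DKO mice had these alleles and received AAV-Cre. MKO mice carried Rosa-Cas9/Cas9 and received AAV-Myocd-sgRNA. Ctrl mice carried Rosa-Cas9/Cas9 and received AAV-Cre. Every group thus had the Cas9 allele and a virus. Cre is named in the labels of DKO and Ctrl and not in those of TKO and MKO. The promoter of each virus, and whether each library was 1 animal, are not stated in the labels, so p-values measure the spread between libraries, which may be partly technical.

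Myocardin (Myocd) and the related factors Mrtfa and Mrtfb are coactivators of serum response factor (SRF), which drives contractile and cytoskeletal genes. Mitochondria translate the few respiratory chain proteins encoded by their own DNA on ribosomes whose proteins are all encoded in the nucleus, made in the cytosol and imported. The small subunit binds and decodes the messenger RNA, and the large subunit joins the amino acids and passes the growing chain towards the inner membrane. Some of these proteins have bacterial counterparts, and others are specific to mitochondria. The heart depends on this translation, and loss of MRPL3, MRPL44 or MRPS22 function causes cardiomyopathy in humans.

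Libraries held 5830185 to 17184517 counts, and mitochondrial ribosomal protein genes took 0.371% to 0.787% of them. Mrtfa reads (Mkl1 in the table) averaged 2.12 ± 0.535 CPM in TKO, 1.995 ± 0.453 in DKO, 9.83 ± 1.96 in MKO and 7.74 ± 2.09 in Ctrl (SD, n = 6 each), where CPM is counts scaled to 1000000 of the effective library size. Mrtfb reads (Mkl2) averaged 35.5 ± 6.01 CPM in TKO, 33.0 ± 4.41 in DKO, 51.3 ± 5.07 in MKO and 49.0 ± 4.04 in Ctrl (SD, n = 6 each). Myocd reads averaged 244.6 ± 55.1 CPM in TKO, 208.6 ± 23.2 in DKO, 143.6 ± 24.1 in MKO and 185.0 ± 27.6 in Ctrl (SD, n = 6 each). The mean of this RNA was thus lower than in Ctrl in MKO and not lower in TKO. Whether Cas9 cut the gene was not tested. The library DKO 1 stood apart. It had the fewest counts, and genes under 1 kb were 0.90 higher in it on the log2 scale than in the other DKO libraries (median of 804 genes), while genes over 5 kb were 0.76 lower (a median of -0.76 over 2330 genes). The genes described here are short, with a median of 1053 bp against 2945 bp over all tested genes, so results are given with and without DKO 1.

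The promoters of the 3 genes with the lowest TKO over Ctrl ratios are shown to set side by side the upstream letters of genes that were lower together. Each line holds the 250 bases before the RefSeq gene start (GRCm38.p6, plus strand). Capitals mark a match on either strand to CCGGAAG, the motif of GABP and other ETS factors, or to the motif of NRF1 (GCGC and TGCGC with any base between them). GABP and NRF1 are known regulators of nuclear genes for mitochondria. The windows are chr13:99344536-99344785 for Mrps27, chr11:97315466-97315715 for Mrpl45 and chr8:22411090-22411339 for Mrps31.
Mrps27: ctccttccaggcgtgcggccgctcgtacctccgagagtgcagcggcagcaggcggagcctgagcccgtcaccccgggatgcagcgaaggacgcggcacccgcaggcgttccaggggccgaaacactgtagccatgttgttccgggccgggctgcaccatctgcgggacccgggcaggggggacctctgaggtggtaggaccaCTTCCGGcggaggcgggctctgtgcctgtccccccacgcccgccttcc
Mrpl45: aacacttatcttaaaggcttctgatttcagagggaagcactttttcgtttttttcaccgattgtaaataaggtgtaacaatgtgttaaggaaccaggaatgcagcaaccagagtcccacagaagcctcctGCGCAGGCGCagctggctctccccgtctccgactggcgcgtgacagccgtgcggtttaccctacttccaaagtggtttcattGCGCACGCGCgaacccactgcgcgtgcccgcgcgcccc
Mrps31: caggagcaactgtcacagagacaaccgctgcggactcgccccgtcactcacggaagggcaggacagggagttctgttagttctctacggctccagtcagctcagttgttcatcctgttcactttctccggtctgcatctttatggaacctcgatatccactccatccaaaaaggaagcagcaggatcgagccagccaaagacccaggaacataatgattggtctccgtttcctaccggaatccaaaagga
Mrps27 held 1 GABP/ETS match and Mrpl45 held 2 NRF1 matches, while neither motif was in the Mrps31 window. Over the 67 genes with a RefSeq window of 300 bases (250 before the start and 50 after it), 34.3% held CCGGAAG, against 18.8% of tested genes and 8.86% of all windows. The NRF1 motif was in 17.9% of them, against 10.8% of tested genes and 4.6% of all windows. AAGATGGC, the motif of YY1, was also in 17.9%, against 4.78% of tested genes and 2.75% of all windows. The CArG box, the element bound by SRF, was in 0 of the 67 windows, against 1.3% of tested genes. Both strands were searched, and a match describes letters, not binding. Among the 15 genes with a window that were called lower in TKO than in Ctrl, 4 held CCGGAAG and 5 held the NRF1 motif, and among the other 52 these were 19 and 7. Many of these genes share a start region with a neighbour: 26 of 76 (34.2%) had a gene on the opposite strand starting within 1000 bases, against 14% of tested genes.

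Summed over all 76 genes, the level was lowest in TKO. It ranged from 3600 to 5174 CPM in TKO, with a mean of 4404 ± 568 (SD, n = 6). DKO ranged from 4603 to 9161 CPM, with a mean of 5453 ± 1818 (SD, n = 6) that was 4712 ± 92.7 without DKO 1 (SD, n = 5). MKO ranged from 4234 to 4955 CPM, with a mean of 4720 ± 282 (SD, n = 6), and Ctrl from 4704 to 6466 CPM, with a mean of 5384 ± 690 (SD, n = 6). The TKO and Ctrl ranges overlapped, since TKO 2 and TKO 3 lay above the lowest Ctrl library. The TKO mean was 0.818 times the Ctrl mean, and 0.893 times as a share of all counts with no scaling between libraries. Large subunit names summed to 3005 ± 406 CPM in TKO and 3671 ± 480 CPM in Ctrl, and small subunit names to 1399 ± 164 CPM in TKO and 1712 ± 211 CPM in Ctrl (SD, n = 6 each). The ratio of the large sum to the small sum stayed between 2.04 and 2.22 in all 24 libraries. Single genes followed the sums within a group: TKO 4 was the lowest TKO library for 61 of 76 genes, DKO 1 the highest DKO library for 75, MKO 6 the lowest MKO library for 51 and Ctrl 3 the highest Ctrl library for 56.

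**Figure D1:**
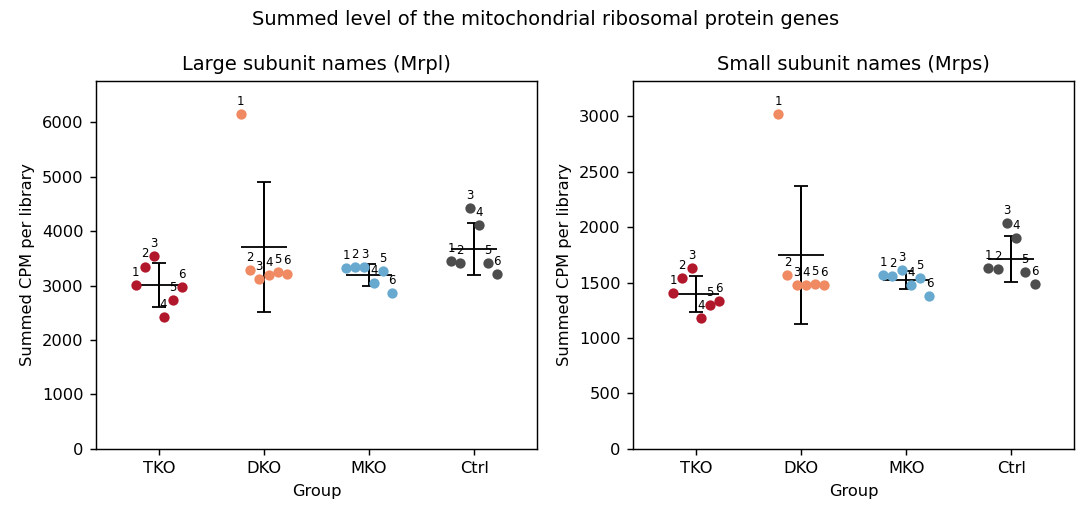
Summed CPM of the 47 large subunit and 29 small subunit names in each library (points, numbered by replicate), with the mean and SD of each group. TKO has the lowest mean in both panels, its highest libraries lie within the Ctrl range, and DKO 1 lies above every other library.

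In TKO against Ctrl, 17 of the 76 genes (22.4%) were lower and none higher at an adjusted p under 0.05 by edgeR's quasi-likelihood test. Over all tested genes, 5.98% were lower and 8.14% higher. At an unadjusted p under 0.05, 28 genes were lower and 0 higher, against 1589 lower and 1730 higher of 12281 genes. DESeq2 called 0 higher, and limma's voom with quality weights called 1 higher. The median log2 ratio of the 76 genes was -0.26 and 71 lay below 0, against a median of -0.01 over all tested genes. The TKO and Ctrl libraries did not overlap for 12 of the 76 genes (15.8%), all lower in TKO, against 3.4% of tested genes. Of these 12, 10 were called, and Mrps35 and Mrpl2, named after their values were seen, were not. By subunit, 13 of 47 large and 4 of 29 small subunit names were called, and the medians over each class were -0.27 for large and -0.26 for small. Without DKO 1, which is in neither group but enters the shared estimate of the spread, 38 of the 76 were lower and 0 higher, against 10.9% lower and 11.8% higher over all genes. All 17 were among those 38. By subunit, the 38 were 24 of 47 large (51.1%) and 14 of 29 small subunit names (48.3%). In the 22 libraries without DKO 1 and Ctrl 3, 29 were lower, against 10.3% of all genes. Leaving out 1 other library left 9 lower without Ctrl 4 or TKO 4, 10 without Ctrl 3 or TKO 5 and 11 without TKO 1 or TKO 6. The share of all genes called in these last fits is not given here.

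**Figure D2:**
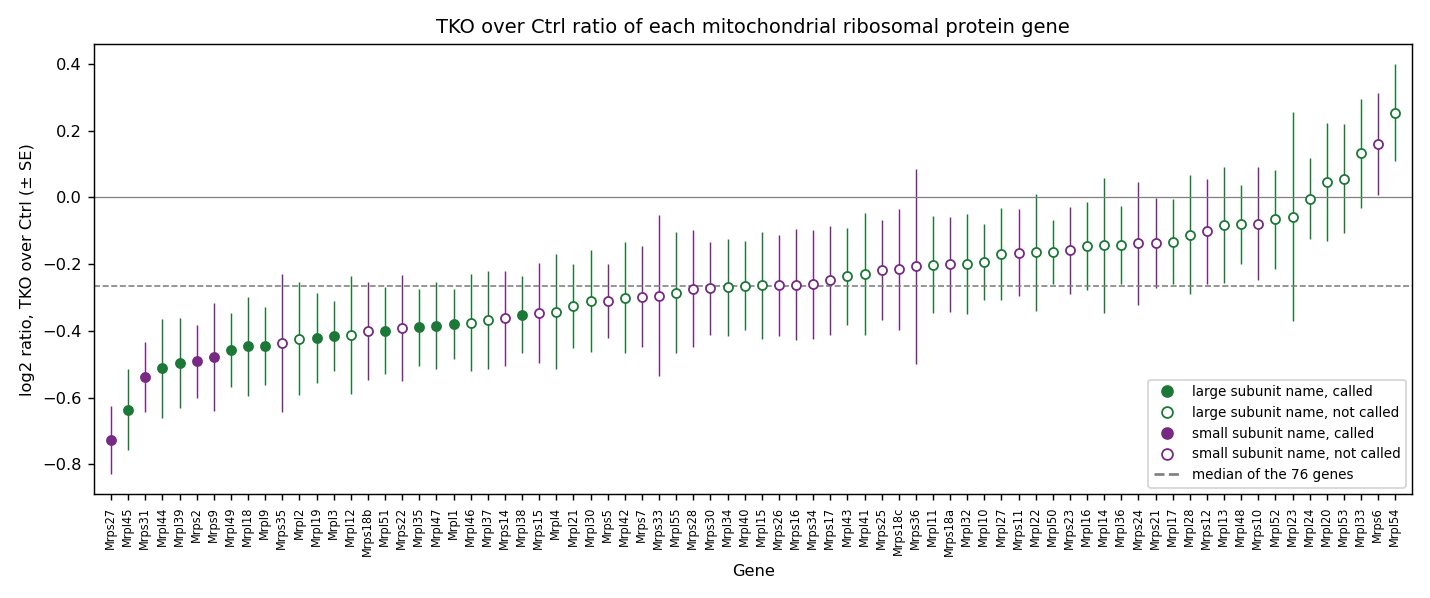
log2 ratio of TKO over Ctrl with its SE for each of the 76 genes, ordered by ratio, with green for large and purple for small subunit names and filled circles for an adjusted p under 0.05. The filled circles run from Mrps27 at -0.73 to Mrpl38 at -0.35, the dashed median lies at -0.26, and the 5 genes above 0 are open circles.

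Of the small subunit genes, Mrps27, a pentatricopeptide repeat protein with no bacterial counterpart, fell the most. It lies at chr13:99344786-99415561 (mm10, plus strand). Its level was 29.7, 43.7 and 53.8 CPM (lowest, median, highest) in TKO, 49.9, 57.8 and 66.9 CPM in DKO, 60.3, 63.8 and 68.3 CPM in MKO and 65.2, 70.1 and 79.97 CPM in Ctrl. Every TKO library lay below every MKO and Ctrl library. The log2 ratio fell by 0.73 ± 0.10 in TKO against Ctrl (SE; edgeR adjusted p = 2.01e-05). Its exons overlap those of 6430562O15Rik by 314 bp, and reads of an overlap could be of either gene, since the library kit does not mark strand.
Mrps31, also specific to mitochondria, had 37.2, 46.5 and 52.1 CPM in TKO, 50.7, 57.5 and 76.7 CPM in DKO, 51.7, 61.1 and 65.6 CPM in MKO and 56.9, 63.9 and 82.8 CPM in Ctrl. TKO did not overlap Ctrl, and its highest library lay above the lowest of DKO and of MKO. It fell by 0.54 ± 0.11 (SE; edgeR adjusted p = 0.000924) in TKO against Ctrl.
Mrps2, whose bacterial counterpart sits between the head and the body of the small subunit, had 36.7, 44.1 and 51.8 CPM in TKO, 40.7, 53.6 and 71.1 CPM in DKO, 48.8, 57.6 and 60.5 CPM in MKO and 56.3, 63.2 and 74.0 CPM in Ctrl. Its TKO and Ctrl libraries did not overlap, and it fell by 0.49 ± 0.11 (SE; edgeR adjusted p = 0.00288). Mrps9 was the other small subunit gene called, with 41.7, 51.9 and 66.3 CPM in TKO and 67.8, 70.6 and 82.8 CPM in Ctrl. It fell by 0.48 ± 0.16 (SE; edgeR adjusted p = 0.0479), and was not called in 21 of 31 alternative settings.

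**Figure D3:**
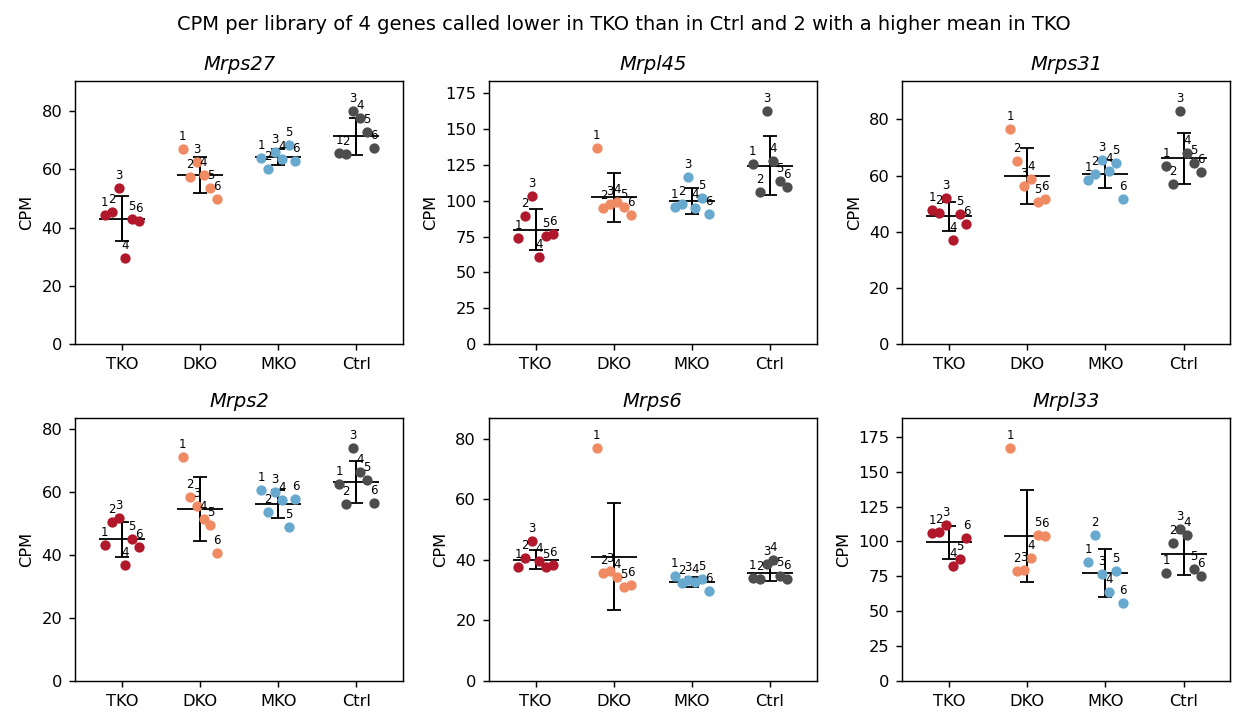
CPM per library of Mrps27, Mrpl45, Mrps31 and Mrps2, lower in TKO than in Ctrl, and of Mrps6 and Mrpl33, which were not called (points numbered by replicate, bars are mean and SD, n = 6). For the first 4 genes all TKO points lie below all Ctrl points, while for Mrps6 and Mrpl33 the TKO and Ctrl points overlap.

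Of the large subunit genes, Mrpl45 fell the most. This mitochondria-specific protein sits near the exit of the peptide tunnel and helps to hold the ribosome at the inner membrane. It lies at chr11:97315716-97329920 (mm10, plus strand). Its level was 60.6, 76.1 and 103.1 CPM in TKO, 89.9, 96.5 and 136.4 CPM in DKO, 90.9, 96.8 and 116.5 CPM in MKO and 106.2, 119.6 and 162.2 CPM in Ctrl. TKO and Ctrl did not overlap, and the DKO and MKO medians lay between theirs. It fell by 0.64 ± 0.12 in TKO against Ctrl (SE; edgeR adjusted p = 0.000735).
Mrpl3, whose bacterial counterpart lies near the peptidyl transferase centre, had 61.9, 84.9 and 101.8 CPM in TKO, 90.5, 92.4 and 130.2 CPM in DKO, 85.4, 100.5 and 106.7 CPM in MKO and 102.8, 108.7 and 125.9 CPM in Ctrl. The highest TKO library lay just below the lowest Ctrl library, and the gene fell by 0.41 ± 0.10 (SE; edgeR adjusted p = 0.00817). Mrpl44, the other human cardiomyopathy gene of the large subunit, had 41.0, 47.1 and 59.8 CPM in TKO, 43.5, 56.4 and 107.1 CPM in DKO, 58.6, 59.6 and 66.0 CPM in MKO and 61.5, 69.7 and 81.0 CPM in Ctrl. It fell by 0.51 ± 0.15 without overlap with Ctrl (SE; edgeR adjusted p = 0.0208). Mrps22, the small subunit gene among these 3, had 15.8, 24.2 and 26.2 CPM in TKO and 24.6, 29.5 and 42.04 CPM in Ctrl. Its ratio of -0.39 ± 0.16 was not called (SE; edgeR adjusted p = 0.102), and its adjusted p without DKO 1 was 0.0211 in the same edgeR test.

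Further large subunit genes were among the 12 with the smallest adjusted p. Mrpl49 fell by 0.46 ± 0.11, with 28.4 to 38.1 CPM in TKO and 39.7 to 54.7 CPM in Ctrl, and its exons overlap those of Syvn1. Mrpl39 fell by 0.50 ± 0.13, with 50.9 to 65.6 CPM in TKO and 71.0 to 98.2 CPM in Ctrl. The libraries of these genes did not overlap between TKO and Ctrl. Mrpl9, the counterpart of a bacterial protein that reaches out from the large subunit, fell by 0.45 ± 0.12, with 45.1 to 71.8 CPM in TKO and 68.3 to 95.6 CPM in Ctrl. Mrpl1, the protein of the stalk past which spent transfer RNA leaves, fell by 0.38 ± 0.10, with 33.1 to 46.7 CPM in TKO and 42.7 to 63.2 CPM in Ctrl. Both overlapped Ctrl. Mrpl35 fell by 0.39 ± 0.12 without overlap, and Mrpl19 by 0.42 ± 0.14 with overlap, and the exons of Mrpl19 overlap those of AW146020. The edgeR adjusted p of these genes ran from 0.00608 for Mrpl49 to 0.0381 for Mrpl19. Mrpl51, Mrpl38, Mrpl18 and Mrpl47 were also called, at edgeR adjusted p from 0.0415 to 0.0494, and each lost its call in 11 or more of the 31 alternative settings. Of the 17 called genes, each had all 6 TKO libraries below the Ctrl mean except Mrpl38, with 5.

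The 3 genes with the highest TKO over Ctrl ratios were not called by edgeR. Mrpl54 had 48.5, 62.7 and 69.6 CPM in TKO and 38.6, 51.8 and 62.7 CPM in Ctrl, with a log2 ratio of 0.25 ± 0.15 (SE; edgeR adjusted p = 0.273). Mrps6 had 37.6, 38.9 and 46.0 CPM in TKO and 33.5, 34.4 and 39.9 CPM in Ctrl, with a log2 ratio of 0.16 ± 0.15 (SE; edgeR adjusted p = 0.549), and its exons overlap those of Slc5a3. Mrpl33 had 82.2, 104.0 and 112.1 CPM in TKO and 74.9, 89.3 and 108.7 CPM in Ctrl, with a log2 ratio of 0.13 ± 0.16 (SE; edgeR adjusted p = 0.657). All 3 overlapped Ctrl and all were short, at 587 bp for Mrpl54, 780 bp for Mrps6 and 466 bp for Mrpl33. The called genes had a median length of 1601 bp, against 992 bp for the rest. They also had a higher level in Ctrl, with a median over genes of 74.0 CPM, against 53.6 CPM for the rest. Among genes of the set under 1 kb, 2 of 32 were called lower, with a median log2 ratio of -0.20, and between 1 and 2 kb 10 of 33, with a median of -0.35. Over all tested genes the medians of both length classes were -0.02, and 24 of 804 and 184 of 2657 genes were lower. Without DKO 1, 8 of 32 and 24 of 33 members were lower, against 95 of 806 and 359 of 2681 genes. The part of length or of level in these values was not tested.

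Genes with and without a bacterial counterpart gave similar values. Of the 47 with one, 9 were called lower in TKO against Ctrl, with a median log2 ratio of -0.25, and of the 29 without, 8 were called lower, with a median of -0.28. This difference was not tested. The level per length, in reads per kilobase of the deposited gene length and 1000000 counts (RPKM), was highest in Ctrl for Mrpl42 at 339.4 ± 56.0 and for Mrpl12, the stalk protein that receives translation factors, at 272.5 ± 40.9 (SD, n = 6 each). Mrpl33, Mrpl18 and Mrpl30 followed at 194.8, 178.3 and 150.3 RPKM. The lowest were Mrpl23 at 1.92 RPKM, Mrps36 at 5.95, Mrps25 at 6.88, Mrpl17 at 7.17 and Mrps33 at 9.08 RPKM. Mrpl23 had only 5 to 17 counts per library. Mrps25 and Mrpl17 averaged 41.7 and 48.1 CPM in Ctrl, over long deposited lengths of 6065 and 6712 bp, and 3536 bp of Mrps25 overlap exons of Nr2c2. Of these 10 genes, Mrpl18 alone was called in TKO against Ctrl in all 24 libraries.

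Some names do not match the place of the protein. Mrps18a, Mrps18b and Mrps18c encode related proteins (paralogs) of the S18 family, and the first is found in the large subunit. Their log2 ratios in TKO against Ctrl were -0.20 ± 0.14, -0.40 ± 0.15 and -0.22 ± 0.18, and none was called (SE; edgeR adjusted p of 0.391, 0.0703 and 0.477). Mrps30, also placed in the large subunit, had -0.27 ± 0.14 (SE; edgeR adjusted p = 0.212). Mrps36, whose protein has been reassigned to the alpha-ketoglutarate dehydrogenase complex, had -0.21 ± 0.29 (SE; edgeR adjusted p = 0.698). Mrpl40 lies 5.45 Mb from Mrtfb on chromosome 16 and had a ratio of -0.27 ± 0.13 (SE; edgeR adjusted p = 0.202). Mrp63, an older symbol of Mrpl57, was outside the naming rule and had 0.16 ± 0.15 (SE; edgeR adjusted p = 0.554).

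In DKO against Ctrl, 0 of the 76 genes were called by edgeR, against 0.635% of all tested genes. At an unadjusted p under 0.05, 4 were lower and 0 higher, against 572 lower and 713 higher of 12281 genes. Without DKO 1 these unadjusted counts were 29 lower and 0 higher, against 886 lower and 587 higher of 12366 genes. DESeq2 called 0, and limma's voom with quality weights called 5 lower, where it called 2.55% of all genes. The median log2 ratio was 0.04 over all libraries and -0.18 without DKO 1, when 75 of 76 genes lay below 0. Without DKO 1, edgeR called 1 gene lower, Mrpl47, and 0 higher, against 0.655% of genes lower and 0.348% higher. It had 17.7 to 19.3 CPM in the 5 DKO libraries other than DKO 1, which had 33.2 CPM, and 20.5, 23.3 and 28.7 CPM in Ctrl. These 5 libraries lay below every Ctrl library. Its ratio without DKO 1 was -0.39 ± 0.09 (SE; edgeR adjusted p = 0.0342). Without DKO 1, 6 of 76 genes (7.89%) were lower with no overlap, against 1.33% of genes.
The lowest ratios over all libraries were those of Mrpl19 at -0.33 ± 0.14, Mrps27 at -0.30 ± 0.10 and Mrpl45 at -0.28 ± 0.12 (SE; edgeR adjusted p of 0.394, 0.247 and 0.405). The authors' deposited table matches a fit without DKO 1 and Ctrl 3. In it these 3 genes and Mrpl3 were called lower, against 1.17% of its 13047 genes with an adjusted p. Their log2 ratios there were -0.35 for Mrpl19, -0.33 for Mrps27, -0.31 for Mrpl45 and -0.28 for Mrpl3. The highest ratios, 0.30 for Mrpl14, 0.28 for Mrpl22 and 0.26 for Mrps24, rested on DKO 1 and were -0.06, -0.02 and -0.06 without it.

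**Figure D4:**
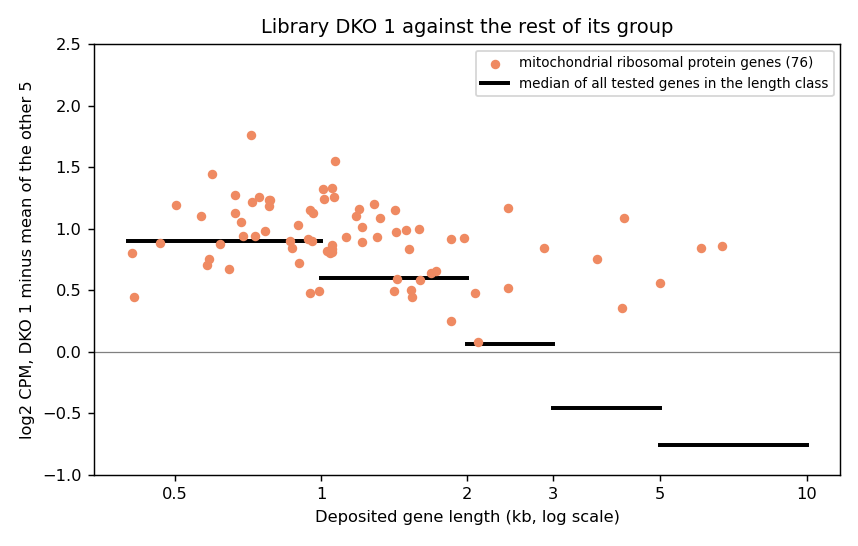
Log2 CPM of DKO 1 minus the mean of the other 5 DKO libraries against gene length for the 76 genes, with black bars for the median of all tested genes in each length class (the class over 5 kb is drawn to 10 kb). All 76 points lie above 0, with a median of 0.92, while the bars run from 0.90 under 1 kb to -0.76 over 5 kb.

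DKO 1 exceeded the mean of the other DKO libraries for all 76 genes, by 0.08 to 1.76 on the log2 scale. The 32 genes under 1 kb were 0.96 higher at the median, near the 0.90 of all genes of that length. The 33 genes between 1 and 2 kb were 0.92 higher, against 0.60 for all genes of that length. The few longer genes were also higher, by 0.52 between 2 and 3 kb (5 genes), 0.66 between 3 and 5 kb (4 genes) and 0.85 over 5 kb (2 genes), against 0.07, -0.46 and -0.76 for all genes of these lengths. DKO 1 had less of some marker sums than the other DKO libraries: 76.3 CPM for fibroblasts, against 263.5 to 640.2 CPM, 138.4 CPM for endothelial cells, against 426.8 to 600.9 CPM, and 190.4 CPM for smooth muscle and pericytes, against 449.0 to 607.2 CPM. Its cardiomyocyte markers were also lowest, at 76438 CPM against 88069 to 103185 CPM, while its leukocyte, red blood cell and atrial sums lay within the range of the other DKO libraries. The part of these values in the DKO results was not tested.

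In MKO against Ctrl, 0 of the 76 genes were called by edgeR, against 0% of all tested genes, and 4 had an unadjusted p under 0.05, all lower, against 321 lower and 441 higher of 12281 genes. DESeq2 and limma's voom with quality weights also called 0. Without DKO 1, edgeR called 0 genes, against 0% of all genes, and 39 had an unadjusted p under 0.05, all lower, against 1478 of 12366 genes, 872 of them lower. With all libraries, 75 of 76 ratios lay below 0, with a median of -0.19, against 0.00 over all tested genes. Short genes leaned the same way: the median was -0.20 for members under 1 kb, against -0.11 for all genes of that length, and -0.18 between 1 and 2 kb, against -0.05. The lowest were Mrpl30 at -0.35 ± 0.15, Mrpl53 at -0.34 ± 0.16 and Mrps33 at -0.34 ± 0.24 (SE; edgeR adjusted p of 0.772, 0.772 and 0.796). The highest were Mrpl22 at 0.01, Mrps5 at -0.04 and Mrpl52 at -0.05. Mrps27 averaged 64.2 ± 2.72 CPM in MKO and 71.4 ± 6.37 CPM in Ctrl (SD, n = 6 each), with a log2 ratio of -0.15 ± 0.10 (SE; edgeR adjusted p = 0.786). TKO, DKO and MKO were each set against the same Ctrl libraries, so the high Ctrl library Ctrl 3 enters all 3 sets of ratios.

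**Figure D5:**
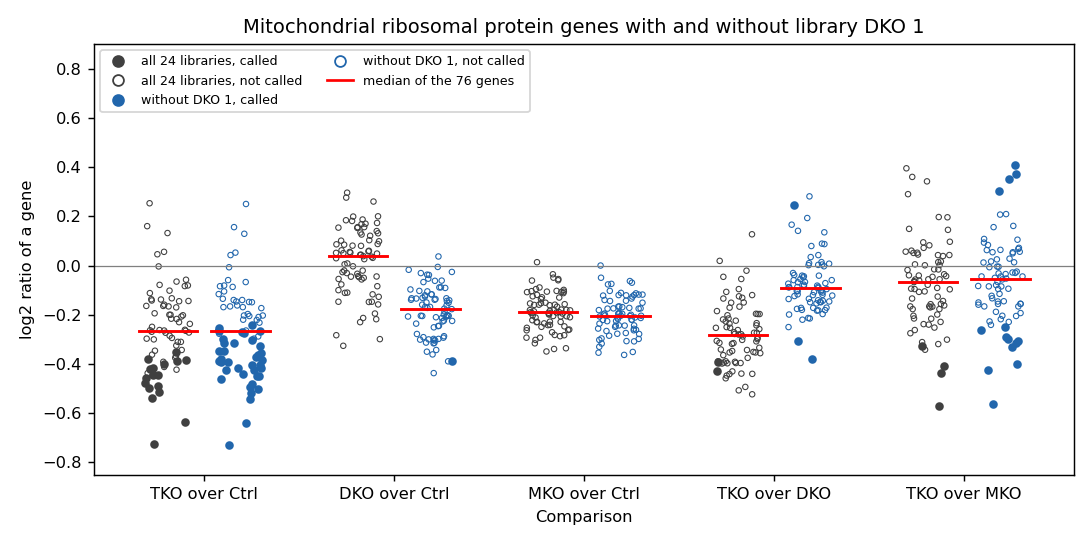
log2 ratios of the 76 genes in 5 comparisons, with all 24 libraries in grey and without DKO 1 in blue, and a red line at each median. The median of TKO over Ctrl is -0.26 in the first and -0.27 in the second, while that of DKO over Ctrl is 0.04 with DKO 1 and -0.18 without it.

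In TKO against DKO, edgeR called 2 of the 76 genes lower, against 2.22% of all tested genes, and 0 higher, against 4.16%. At an unadjusted p under 0.05, 36 members were lower and 0 higher, against 1455 lower and 1427 higher of 12281 genes. Without DKO 1, 7 were lower and 2 higher, against 1445 lower and 1669 higher of 12366 genes. Mrps27 fell by 0.43 ± 0.10 (SE; edgeR adjusted p = 0.0113) and Mrps31 by 0.39 ± 0.11 (SE; edgeR adjusted p = 0.0255). The median of -0.28 over the 76 genes was -0.09 without DKO 1. Without DKO 1 these 2 genes were again lower, against 2.85% of genes, and Mrps6 was higher by 0.25 ± 0.07, against 6.05% of genes higher (SE; edgeR adjusted p = 0.0305). With DKO 1 the ratio of Mrps6 was -0.02 ± 0.15.
In TKO against MKO, edgeR called 4 genes lower, against 6.86% of all tested genes, and 0 higher, against 6.48%. At an unadjusted p under 0.05, 10 members were lower and 3 higher, against 1817 lower and 1605 higher of 12281 genes. The called genes were Mrps27 at -0.57 ± 0.10, Mrps31 at -0.41 ± 0.11, Mrpl39 at -0.44 ± 0.13 and Mrps2 at -0.33 ± 0.11 (SE; edgeR adjusted p of 0.000467, 0.0116, 0.0321 and 0.0475). The median was -0.07. Without DKO 1, 10 genes were lower, against 10.7% of genes, and 4 higher, against 11.4%. The 4 higher were Mrps6 at 0.30 ± 0.07, Mrpl54 at 0.35 ± 0.12, Mrpl33 at 0.37 ± 0.13 and Mrpl53 at 0.41 ± 0.13 (SE; edgeR adjusted p from 0.00282 to 0.0394). Mrps6 ranged from 37.6 to 46.0 CPM in TKO and from 29.8 to 34.6 CPM in MKO, with no overlap.

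In DKO against MKO, 0 genes were called by edgeR, against 0.79% of all tested genes, and 0 by DESeq2 or limma's voom. At an unadjusted p under 0.05, 10 were higher and 0 lower, against 1148 higher and 729 lower of 12281 genes. Without DKO 1 the unadjusted counts were 1 higher and 1 lower. The matching counts over all genes without DKO 1 are not given here. The median of 0.20 was 0.01 without DKO 1. The interaction asked whether TKO against DKO differed from MKO against Ctrl. It called 0 genes, against 0.464% of all tested genes, with 0 at an unadjusted p under 0.05, against 1520 of 12281 genes, and 0 called by DESeq2 or voom. Its median was -0.10 with DKO 1 and 0.09 without it. Without DKO 1, Mrps6 was called at 0.39 ± 0.10, against 1.63% of genes (SE; edgeR adjusted p = 0.0427), and with DKO 1 it was at 0.11 ± 0.22.

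Lists of other mitochondrial genes were counted in TKO against Ctrl, where 5.98% of all tested genes were lower, and 10.9% without DKO 1. Of 6 mitoribosomal subunits with other names, 1 was called, Ptcd3, which is a small subunit protein (-0.46 ± 0.10; SE; edgeR adjusted p = 0.00143). Of 24 assembly factors, 10 were lower, including the methyltransferase-like Mettl17 at -0.45, the small subunit factors Rbfa at -0.44 and Eral1 at -0.39. Of 14 translation factors, 8 were lower, including the initiation factor Mtif2 at -0.47, the insertase Oxa1l at -0.56 and the RNA-binding Lrpprc at -0.57. Mtif2 ranged from 41.4 to 58.9 CPM in TKO and from 62.0 to 76.6 CPM in Ctrl, with no overlap. Of 17 mitochondrial aminoacyl-tRNA synthetases, which charge transfer RNA, 8 were lower, including Sars2 at -0.46. Of 8 genes of mitochondrial DNA upkeep and transcription, 2 were lower, Top1mt at -0.47 and Tfam at -0.34. Of 11 chaperones and proteases, 5 were lower, including Hspa9 at -0.41. The medians were -0.07 for the other subunits, -0.27 for assembly factors, -0.31 for translation factors, -0.29 for synthetases, -0.22 for DNA upkeep and -0.27 for chaperones and proteases. Without DKO 1, 2 of the 6 other subunits, 10 of 24 assembly factors, 9 of 14 translation factors, 9 of 17 synthetases, 2 of 8 DNA upkeep genes and 7 of 11 chaperones and proteases were lower, and 1 assembly factor was higher. The difference of these lists from all genes was not tested.

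Of 13 regulators of mitochondrial biogenesis, 1 was lower and 1 higher in TKO against Ctrl, with a median of -0.04, and without DKO 1 2 were lower and 1 higher. Over all tested genes 5.98% were lower and 8.14% higher, and without DKO 1 10.9% and 11.8%. The counts of so short a list lie near these shares and are not a result about the list. Ppargc1b, a coactivator of nuclear receptors that promotes mitochondrial genes, had 64.0, 97.2 and 129.2 CPM in TKO and 158.3, 175.9 and 198.6 CPM in Ctrl, and did not overlap. It fell by 0.85 ± 0.12 (SE; edgeR adjusted p = 2.79e-05). Myc, a transcription factor that raises ribosome genes, had 7.74, 11.1 and 12.1 CPM in TKO and 3.29, 4.30 and 7.52 CPM in Ctrl, and rose by 1.15 ± 0.26 (SE; edgeR adjusted p = 0.0032). Ppargc1a had -0.19 ± 0.27, Nrf1 0.03 ± 0.12 and Gabpa -0.22 ± 0.11, and none of them was called (SE; edgeR adjusted p of 0.704, 0.905 and 0.209).

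Cytosolic ribosomal protein genes gave other values, at a low level in these libraries. Their 77 rows summed to 1552 ± 226 CPM in Ctrl, against 5384 ± 690 CPM for the 76 genes (SD, n = 6 each). The part of this low level in their ratios was not tested. In TKO against Ctrl, 1 of 77 was lower and 0 higher, with a median of 0.09, and without DKO 1 2 of 77 were lower. Over all tested genes 5.98% were lower, and 10.9% without DKO 1. Complex I genes were taken as the rows whose name starts with Nduf. Some other subunits of that complex are made on mitochondrial ribosomes. These genes gave 7 of 41 lower (17.1%) with a median of -0.30, and without DKO 1 21 of 41 (51.2%). The difference of these sets from the 76 genes was not tested.

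Markers of the sorted cells and of other cells were read in each group. Summed over 8 cardiomyocyte markers, TKO had 80028 to 102652 CPM, DKO 76438 to 103185, MKO 87128 to 109318 and Ctrl 105837 to 129756 CPM, so TKO and DKO each lay below Ctrl without overlap. Of these 8 markers, 2 were lower in TKO, Ttn at -0.80 ± 0.22 and Myh6 at -0.63 ± 0.18 (SE; edgeR adjusted p of 0.0151 and 0.0179). Over all tested genes 5.98% were lower in TKO than in Ctrl and 8.14% higher. Summed over 8 fibroblast markers, TKO had 228.6 to 304.5 CPM and Ctrl 107.7 to 625.1 CPM, and over 7 endothelial markers TKO had 113.0 to 434.7 CPM and Ctrl 109.2 to 1145 CPM. The 6 smooth muscle and pericyte markers summed to 392.2 to 659.1 CPM in TKO and 470.4 to 807.9 CPM in Ctrl, and 1 of them was higher. The 7 leukocyte markers summed to 8.83 to 15.4 CPM in TKO, with a median of 12.6, and to 4.73 to 14.9 CPM in Ctrl, with a median of 7.40. The part of these markers in the lower mitochondrial ribosomal protein genes was not tested, and in such bulk libraries fewer cells of a type and less RNA per cell cannot be told apart.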

How the data were processed

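RNA of sorted mouse cardiomyocytes was sequenced in 24 libraries, 6 for each of TKO, DKO, MKO and Ctrl, grouped by their labels. The deposited values are whole-number read counts per gene with a gene length in base pairs, and STAR, featureCounts, DESeq2 and mm10 are named in the submitters' processing notes with no versions. The authors' 6 deposited comparison tables give, per the file headers, log2 ratios, a p-value and an adjusted p-value, a Wald statistic (a score) and a mean normalized signal. They matched a refit without DKO 1 and Ctrl 3.

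Counts were tested with edgeR 4.0.16 (TMM, filterByExpr, quasi-likelihood, two-sided, 1 coefficient per group) in R 4.3.3, with Benjamini-Hochberg adjustment over all 12281 genes tested. Genes past an adjusted p of 0.05 count as called. The 7 comparisons were each group against Ctrl, the 3 other pairs and the interaction. CPM uses the effective library size, and intervals and SE cover these libraries only. Alternatives were RLE scaling, no filter, DESeq2 1.42.0, limma 3.58.1 voom with quality weights, a replicate block, 22 libraries, the compared groups alone, and each library left out. Genes named were the 12 called genes with the smallest adjusted p in TKO against Ctrl and 6 in the other comparisons, per direction, the 3 highest and lowest ratios against Ctrl, the 5 highest and lowest by RPKM, genes near the targeted loci, and genes with special names or disease links. Members and lists were chosen with earlier results of these data known.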

Additional observations from a re-analysis of the deposited data

Results flagged for a closer look

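The summed level of the 76 genes in DKO 1 was 9161 CPM, far above the other DKO libraries. DKO 1 was also the highest DKO library, by a gap over Dixon's critical value of 0.625, for 68 of the 76 genes. Among the genes named, its level was 135.0 CPM for Mrps9, 107.1 CPM for Mrpl44, 83.9 CPM for Mrpl54, 136.4 CPM for Mrpl45 and 107.9 CPM for Mrpl38. It was 129.8 CPM for Mrpl39, 76.9 CPM for Mrps6, 270.0 CPM for Mrpl18, 64.3 CPM for Mrpl49 and 33.2 CPM for Mrpl47. It was 99.5 CPM for Mrpl9, 167.0 CPM for Mrpl33, 115.6 CPM for Mrpl35, 52.3 CPM for Mrpl19, 240.3 CPM for Mrpl51 and 130.2 CPM for Mrpl3. Outside DKO, MKO 3 stood above the other MKO libraries for Mrpl44 at 66.0 CPM, and TKO 3 above the other TKO libraries for Mrps6 at 46.0 CPM. By the same rule TKO 4 was lowest in its group for 2 genes, MKO 6 lowest for 3 and Ctrl 3 highest for 1. Among these were Mrps22 in TKO 4 at 15.8 CPM, Mrpl17 in MKO 6 at 37.2 CPM and Mrps36 in Ctrl 3 at 7.09 CPM. In all, 76 of 304 pairs of gene and group had such a gap, 8 of them not from DKO 1, where chance gives about 1 in 20.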

How the results depend on the processing

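In TKO against Ctrl the 17 called genes became 11 with no filter on low counts, 31 by limma's voom with quality weights (30 lower, 1 higher, where 21.5% of all genes were called) and 29 in the 22 libraries without DKO 1 and Ctrl 3. Leaving out 1 library gave 9 (Ctrl 4 or TKO 4) to 38 (DKO 1) genes, with 10 without Ctrl 3 or TKO 5 and 11 without TKO 1 or TKO 6. Mrpl1, Mrpl3, Mrpl9, Mrpl39, Mrpl45, Mrpl49, Mrps2, Mrps27 and Mrps31 were called in all 31 settings. In DKO against Ctrl voom called 5, and leaving out 1 library gave 0 to 1. In TKO against DKO the main fit called 2.63% of the members lower, against 2.22% of all genes. There DESeq2 called 4 and a fit of those groups alone 0, and leaving out 1 library gave 1 to 4. Counts in this section without a share of all genes show how far the calls moved. They are not a result about these genes. In TKO against MKO, voom called 17 (26.1% of all genes), the 22 libraries 14 (23.4%) and the groups alone 15 (21.6%), and leaving out 1 library gave 2 to 14. The interaction gave 0 to 1. None of the 17 genes called in TKO against Ctrl changed direction in these settings, but Mrps6 in TKO against DKO was at -0.02 with DKO 1 and 0.25 without it, and without DKO 1 the median log2 ratio changed sign in DKO against Ctrl (0.04 with it, -0.18 without) and in the interaction (-0.10 with it, 0.09 without). With the replicate number as a block, 18 genes were called in TKO against Ctrl, 3 in TKO against DKO, 5 in TKO against MKO and 0 in the others. Same-numbered libraries correlated between -0.19 and 0.62, with a median of 0.06, and over 0.1 in 14 of 36 pairs. Differently numbered libraries correlated between -0.49 and 0.44, with a median of -0.02, and over 0.1 in 46 of 180 pairs. Of the 24 libraries, 5 correlated best with their own number. These values do not decide whether the numbers pair the libraries. The causes were not tested. DKO 1 had the fewest counts, 5830185.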
